A study of Arabidopsis halleri subsp. gemmifera and Arabidopsis thaliana with 4 samples.

Results

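The nuclear genes for the light-harvesting antenna and the photosystem subunits were examined in roots of Arabidopsis halleri ssp. gemmifera and Arabidopsis thaliana. They were 39 loci out of the 33602 in the count tables, taken from a list of locus identifiers. The list used no measured values, but it was chosen with earlier results of these data known. It held 4 LHCA genes, 9 LHCB1 to LHCB3 genes and 5 LHCB4 to LHCB6 genes. A further 12 genes were for subunits of photosystem I and 9 for subunits of photosystem II. RNA sequencing was done on 2 libraries of A. halleri roots and 2 libraries of A. thaliana roots, all labelled as controls. All plants grew in one hydroponic solution, a diluted Hoagland medium that held 0.8 µM zinc sulfate, 10 µM iron EDTA and 0.3 µM copper sulfate. The labels name no accession or genotype for either species, and they call the libraries biological replicates without saying how many plants each held, so p-values measure the spread between these libraries, which may in part be technical.

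Antenna proteins bind chlorophyll and carotenoids and pass absorbed light energy to the reaction centres of the photosystems. LHCA proteins form the antenna of photosystem I, while the LHCB proteins serve photosystem II, LHCB1 to LHCB3 in its trimeric outer antenna and LHCB4 to LHCB6 as monomers between the trimers and the core. These proteins are made in the cytosol from nuclear genes and imported into the chloroplast, where they join core subunits encoded by the chloroplast genome. Roots in soil are not green, and their plastids as a rule carry little of this machinery.

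The tables held 16335761 and 15497893 reads for the A. halleri libraries and 18127031 and 22762183 for the A. thaliana libraries. All levels below are in CPM, the reads of a gene scaled to a common library size, and a single read was worth 0.0452 to 0.0634 CPM. Reads of both species had been counted on A. thaliana transcript models, so each fold difference joins the amount of RNA with how well the reads of A. halleri match those models, and the part of the latter was not tested. The root label was compared with marker genes. Of 17 leaf and shoot markers, 6 had no read in any library and 12 had none in both A. halleri libraries, and the 17 together summed to 1.53 and 1.52 CPM in A. halleri and 2.21 and 2.35 CPM in A. thaliana. Of these 17, 2 had enough reads to test, named after their values were seen: KAT1 was called higher in A. halleri (11 and 16 reads against 0 and 1), HT1 lower (7 and 4 against 18 and 22), and neither was called without A. halleri replicate 2. The 12 root markers summed to 8338 and 7856 CPM in A. halleri and to 2967 and 2873 CPM in A. thaliana. Of these sums PYK10 alone gave 6260 and 5601 CPM in A. halleri and 1412 and 1337 CPM in A. thaliana. Of the 12 markers, 5 were called higher in A. halleri, 2 lower and 5 were not called. In whole roots, a larger number of cells with such transcripts and more of the transcripts per cell cannot be told apart.

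Antenna and photosystem transcripts were more abundant in A. halleri roots. The 39 genes together gave 1028 and 1345 CPM in the A. halleri libraries and 116 and 110.0 CPM in the A. thaliana libraries. Both A. halleri sums lay far above both A. thaliana sums, and the means of 1186 ± 225 and 113 ± 4.6 CPM (SD, n = 2 each) stood in a ratio of 10.5. As a share of all scaled reads, the genes took 0.119% in A. halleri and 0.0113% in A. thaliana. By edgeR's quasi-likelihood test with an adjusted p below 0.05, 34 of the 39 genes were higher in A. halleri and 0 were lower, while of the 20899 loci tested 72.5% were called, 35.7% higher and 36.8% lower. Of the 37 tested genes, 34 were both called and at least 2-fold higher, as were 4126 of the 20899 tested loci (19.7%). The median difference over the 37 tested genes was a log2 of 3.43, a 10.8-fold difference, beside a median of -0.01 over all tested loci. In 34 of the 37 tested genes the libraries of the species did not overlap, a property that 87.2% of all tested loci shared in either direction. Of the 37 tested genes, 10 reached the read minimum in the A. halleri libraries and not in both A. thaliana libraries, so that their place among the tested genes rests on the species in which they were high. These 10 were LHCB1.1, LHCB1.2, LHCB2.3, PSAD1, PSAE1, PSAH2, PSAK, PSBQ1, PSBW and PSBY. Of the other 27, which reached it in both species, 24 were called higher.

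**Figure D1:**
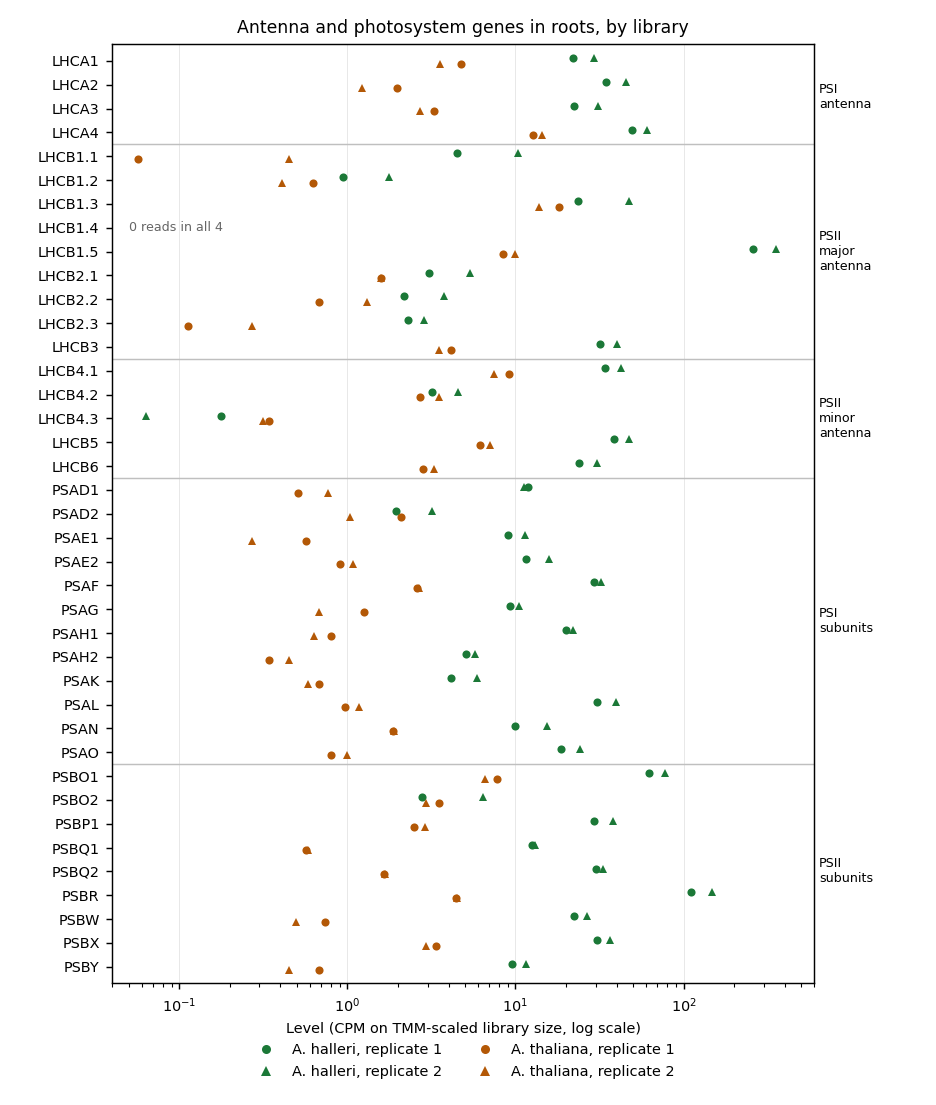
Level of each antenna and photosystem gene in CPM, on a log axis, in the 2 A. halleri and the 2 A. thaliana root libraries, with 1 point per library and genes ordered by role. Points of A. halleri lie to the right of those of A. thaliana in the 34 genes called higher, and the species overlap in LHCB4.2, PSAD2 and PSBO2. In LHCB4.3, which had too few reads to test, points of A. halleri lie to the left. LHCB1.4 has no point because it had 0 reads.

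Per kilobase of transcript, the order of the genes was similar in part between the species, with a Spearman rho of 0.66 over the 37 tested genes, which share the same 4 libraries and gene models. LHCB1.5, at 293 CPM per kb, and PSBR, at 179, were the highest in A. halleri. In A. thaliana LHCB1.3, at 15.3 CPM per kb, and LHCA4, at 10.7, stood first, while LHCB1.5 was at 8.80 and PSBR at 6.18. In A. halleri 23 genes exceeded 10 CPM in both libraries, whereas in A. thaliana LHCA4 and LHCB1.3 were the 2 that did so.

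All 4 LHCA genes of the photosystem I antenna were higher in A. halleri roots, with a median of 7.43-fold. LHCA4 (AT3G47470, chr3:17493343-17495033 on TAIR10.1) was the most abundant of them per kilobase in both species, at 49.5 and 60.3 CPM in A. halleri and 12.7 and 14.3 CPM in A. thaliana. Its libraries were well separated, and its 4.05-fold difference was the smallest of the LHCA genes (log2 2.02, SE 0.13, edgeR adjusted p = 1.1e-05). LHCA2 (AT3G61470, chr3:22745514-22747444) gave 34.8 and 45.7 CPM in A. halleri but 1.99 and 1.22 CPM in A. thaliana. With LHCA3, LHCA2 forms one of the dimers on the side of photosystem I, and its 25.5-fold difference was the largest of the 4 genes (log2 4.67, SE 0.24, edgeR adjusted p = 3.61e-06). LHCA1 and LHCA3 stood between them at 6.18-fold and 8.93-fold. Per kilobase, LHCA2 (36.3 CPM per kb) lay near LHCA4 (43.4 CPM per kb) in A. halleri, while in A. thaliana it was the lowest of the 4 at 1.45 CPM per kb against 10.7 for LHCA4.

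LHCB1 proteins make up most of the trimeric antenna, and the 5 LHCB1 loci sit in 2 clusters of the A. thaliana genome. LHCB1.1, LHCB1.2 and LHCB1.3 lie next to each other on chromosome 1, with 1915 bases between LHCB1.1 and LHCB1.3 and 1153 bases between LHCB1.1 and LHCB1.2. LHCB1.5 and LHCB1.4 lie back to back on chromosome 2, with 1038 bases between them. The 60 coding bases below are where LHCB1.3 and LHCB1.5, the most abundant copies, differ most. They were chosen for that and do not stand for the whole coding sequence. They are given 5′ to 3′ on the coding strand from RefSeq's TAIR10.1 assembly, and capitals mark the bases that differ from LHCB1.3.
LHCB1.1 (chr1:10475416-10475475, minus strand): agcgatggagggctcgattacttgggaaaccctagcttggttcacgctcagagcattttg
LHCB1.2 (chr1:10472770-10472829, minus strand): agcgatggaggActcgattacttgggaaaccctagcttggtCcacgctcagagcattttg
LHCB1.3 (chr1:10478488-10478547, plus strand): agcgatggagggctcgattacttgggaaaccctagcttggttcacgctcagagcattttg
LHCB1.4 (chr2:14525232-14525291, plus strand): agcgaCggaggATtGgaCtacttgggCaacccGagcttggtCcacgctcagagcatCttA
LHCB1.5 (chr2:14523043-14523102, minus strand): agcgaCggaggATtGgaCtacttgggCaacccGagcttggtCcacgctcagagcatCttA
LHCB1.1 and LHCB1.3 are identical in this window, LHCB1.2 differs from them at 2 bases, and LHCB1.4 and LHCB1.5 differ from LHCB1.3 at the same 10 bases. Over the 798 aligned coding bases, LHCB1.3 and LHCB1.5 have 80 differing bases and no identical run longer than 47 bases. Within the clusters identity is higher, at 95.6% to 96.4% among the 3 copies of chromosome 1 and at 92.5% between LHCB1.4 and LHCB1.5. Identical runs there are longer too, at 119 bases between LHCB1.1 and LHCB1.3 and 122 bases between LHCB1.4 and LHCB1.5. Of the LHCB1 reads, 4857 of 4864 and 6507 of 6511 in the A. halleri libraries were unique to 1 transcript model. In the A. thaliana libraries all 481 and 544 were. Whether reads of A. halleri fell on the matching copy was not tested. How the authors' counting divided reads between copies is not given in the sources used here, and levels of single copies are uncertain to that extent.

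LHCB1.5 (AT2G34420, chr2:14522524-14523568) was the most abundant antenna transcript of A. halleri roots per kilobase, with 4373 and 5577 reads or 258 and 354 CPM. The A. thaliana libraries held 148 and 221 of its reads, 9.98 CPM at the higher. The lower A. halleri library was far above the higher A. thaliana library, and the 33.1-fold difference was the largest of the LHCB1 to LHCB3 genes (log2 5.05, SE 0.19, edgeR adjusted p = 1.06e-06). A long non-coding RNA annotated on the other strand, AT2G08665, covers all 1045 bases of LHCB1.5, and no reads of it were analysed here. LHCB1.3 (AT1G29930, chr1:10477885-10479114) was the copy most abundant per kilobase in A. thaliana. It gave 23.5 and 47.1 CPM in A. halleri and 18.2 and 13.7 CPM in A. thaliana. Its species did not overlap, but the SD over the A. halleri libraries was 16.7 CPM, and its 2.22-fold difference was the smallest in this group (log2 1.15, SE 0.31, edgeR adjusted p = 0.011).

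The remaining LHCB1 copies were scarce. For LHCB1.1 the A. halleri libraries held 76 and 163 reads and those of A. thaliana 1 and 10, a difference of 26.3-fold (log2 4.72, SE 0.65, edgeR adjusted p = 0.000438). That value depended on single libraries, with a log2 of 4.01 without A. halleri replicate 2, 4.01 without A. thaliana replicate 1 and 6.84 without A. thaliana replicate 2. LHCB1.2 had 16 and 28 reads against 11 and 9, a 2.65-fold difference at an edgeR adjusted p of 0.0233. Its call was lost when A. halleri replicate 2 (edgeR adjusted p = 0.214) or A. thaliana replicate 2 (edgeR adjusted p = 0.109) was left out and in DESeq2 (adjusted p = 0.106). LHCB1.4 had 0 reads in all 4 libraries and was not tested.

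The copies divided the reads of the family as follows. LHCB1.5 held 89.9% and 85.7% of LHCB1 reads in the A. halleri libraries and 30.8% and 40.6% in the A. thaliana libraries. For LHCB1.3 the shares were 8.20% and 11.4% in A. halleri but 66.7% and 55.9% in A. thaliana. The leading copy was thus LHCB1.5 in both A. halleri libraries and LHCB1.3 in both A. thaliana libraries. Shares were not tested. When the 5 copies were summed before the fit, which does not depend on how reads were split between them, LHCB1 was 13.5-fold higher in A. halleri (log2 3.76, SE 0.19, edgeR adjusted p = 3.09e-06).

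**Figure D2:**
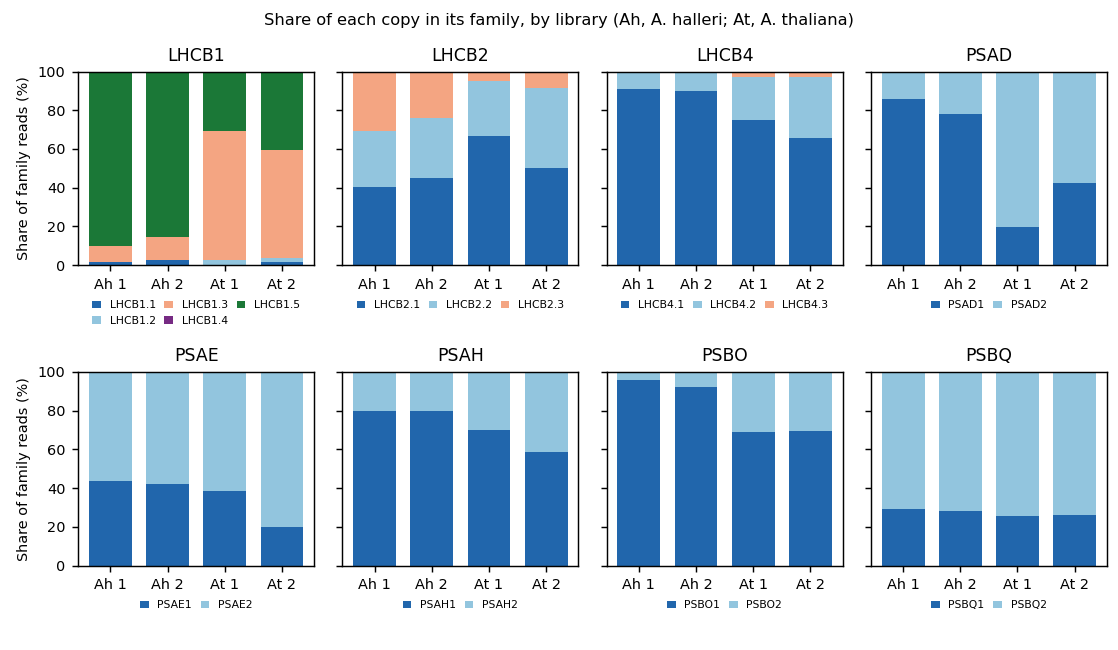
Share of each family's reads held by each gene copy, in percent, with 1 bar per library for the 8 families that have more than 1 copy. In LHCB1 the largest segment is LHCB1.5 in A. halleri and LHCB1.3 in A. thaliana, and in PSAD it is PSAD1 in A. halleri and PSAD2 in A. thaliana.

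LHCB2, the partner of LHCB1 in the trimers that move between the photosystems, had lower levels per kilobase than LHCB1.5 and LHCB1.3 (at most 3.84 CPM per kb in A. halleri), and its 3 copies were all called higher in A. halleri. LHCB2.1 gave 3.07 and 5.39 CPM against 1.59 and 1.58 CPM, and LHCB2.2 gave 2.18 and 3.74 CPM against 0.681 and 1.31 CPM. Both differed by under 3-fold (2.65-fold, edgeR adjusted p = 0.00562, and 2.88-fold, edgeR adjusted p = 0.0104), and LHCB2.2 was not called without A. halleri replicate 2 (edgeR adjusted p = 0.0859). LHCB2.3 gave 2.3 and 2.86 CPM against 0.114 and 0.271 CPM, a difference of 12.4-fold (edgeR adjusted p = 0.000177). It rested on 2 and 6 reads in A. thaliana, and without A. thaliana replicate 2 its log2 rose from 3.64 to 4.41. A protein-coding gene on the other strand, AT3G27700, overlaps LHCB2.3 by 595 bases and had between 586 and 971 reads in the 4 libraries. Whether reads were counted by strand is not given in the sources used here, so reads of these overlapping genes cannot be told apart. The same limit holds for 15 of the 39 genes, of which only those overlapped by at least 400 bases are pointed out. Among the shorter overlaps, PSAH2, with 6 and 10 reads in A. thaliana, shares 174 bases with AT1G52240, which had 140 and 191 there. LHCB3, which completes some trimers, was 9.47-fold higher, with 31.9 and 40.5 CPM against 4.14 and 3.52 CPM (edgeR adjusted p = 4.15e-06).

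Of the LHCB4 to LHCB6 genes, 3 were called higher, 1 was not called and LHCB4.3 was not tested. LHCB6 had the largest difference, with 23.8 and 30.8 CPM in A. halleri against 2.84 and 3.30 CPM in A. thaliana. This 8.83-fold separation was several times the gap between replicates (log2 3.14, SE 0.18, edgeR adjusted p = 6.44e-06). LHCB5 had the highest level per kilobase of the group in A. halleri (35.5 CPM per kb), at 38.8 and 47.1 CPM against 6.19 and 7.09 CPM, and differed 6.44-fold (log2 2.69, SE 0.15, edgeR adjusted p = 4.75e-06). LHCB4.1 (AT5G01530, chr5:208866-210548) led the group per kilobase in A. thaliana (6.79 CPM per kb) with 9.20 and 7.41 CPM. In A. halleri LHCB4.1 gave 34.1 and 42.6 CPM, 4.63-fold more (log2 2.21, SE 0.16, edgeR adjusted p = 1.85e-05).

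The second copy, LHCB4.2, gave 3.18 and 4.57 CPM in A. halleri and 2.73 and 3.52 CPM in A. thaliana. Its libraries overlapped between species, and the log2 difference of 0.30 with an SE of 0.26 was not called (edgeR adjusted p = 0.336). Of all LHCB4 reads, LHCB4.1 took 91.0% and 90.2% in the A. halleri libraries but 75.0% and 65.9% in those of A. thaliana. With reads unique to 1 transcript model these shares were 96.5% and 96.3% against 90.0% and 83.2%. LHCB4.1 has 1 model, while LHCB4.2 and LHCB4.3 have 2 each, and reads that match both models of a gene do not count as unique. For the third copy, LHCB4.3, there were 3 and 1 reads against 6 and 7, too few to enter the test.

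Among the 12 nuclear subunits of photosystem I, 11 were higher in A. halleri and 1, PSAD2, was not called. The median over the 12 was 13.4-fold. PSAL (AT4G12800, chr4:7521257-7522761), which with PSAH and PSAO forms the side of photosystem I where the mobile antenna docks, had the highest level per kilobase of them in A. halleri (35.8 CPM per kb) with 30.8 and 39.7 CPM. In A. thaliana PSAL gave 0.965 and 1.17 CPM. Its 32.4-fold difference was the largest of this group (log2 5.02, SE 0.21, edgeR adjusted p = 1.57e-06). The other subunits of that side were also far apart, with PSAH1 29.5-fold higher at 19.9 and 22.1 CPM against 0.795 and 0.632 CPM. PSAO gave 18.6 and 24.2 CPM against 0.795 and 0.994 CPM, a 23.5-fold difference, and PSAH2 differed 13.2-fold. PSAH1 is overlapped for 788 bases by AT3G16130 on the other strand, which had 1 read in all 4 libraries.

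PSAF, the docking subunit for plastocyanin on the lumen side, had the highest photosystem I level per kilobase in A. thaliana (2.77 CPM per kb) at 2.61 and 2.67 CPM. It gave 29.2 and 32.5 CPM in A. halleri, an 11.6-fold difference with close replicates in both species (log2 3.54, SE 0.14, edgeR adjusted p = 1.36e-06). PSAN, also on the lumen side, was 6.68-fold higher, the smallest difference among the 11 subunits called. The antenna-side subunits PSAG and PSAK differed 10.5-fold and 7.86-fold. PSAG is overlapped on the other strand for 479 bases by AT1G55673, for which no reads were analysed here.

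PSAD and PSAE form the ferredoxin docking site on the stromal side. PSAE1 and PSAE2 were 24.9-fold and 13.5-fold higher in A. halleri, with PSAE1 overlapped by AT4G28755 for 436 bases, again with no reads analysed here. The copies of PSAD differed from each other. PSAD1 gave 11.9 and 11.3 CPM in A. halleri against 0.511 and 0.768 CPM, which is 17.6-fold more (log2 4.14, SE 0.24, edgeR adjusted p = 6.8e-06). PSAD2 gave 1.95 and 3.17 CPM in A. halleri against 2.1 and 1.04 CPM in A. thaliana. Its libraries overlapped, and its log2 difference of 0.73 with an SE of 0.40 was not called (edgeR adjusted p = 0.139), though it was without A. thaliana replicate 1 (log2 1.29, edgeR adjusted p = 0.0159). Of the PSAD reads, PSAD1 held 85.9% and 78.1% in A. halleri but 19.6% and 42.5% in A. thaliana, and the pair summed was 6.46-fold higher in A. halleri (edgeR adjusted p = 2.46e-05). The coding sequences of PSAD1 and PSAD2 are 88.0% identical.

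Of the 9 photosystem II subunits, 8 were higher and PSBO2 was not called, with a median over the 9 of 18.7-fold. PSBW (AT2G30570, chr2:13019028-13020311), a small subunit that holds the antenna to the core, showed the largest difference of all 37 tested genes. It gave 22.4 and 26.5 CPM in A. halleri and 0.738 and 0.497 CPM in A. thaliana, from 13 and 11 reads. PSBW is among the 10 genes that did not reach the read minimum in both A. thaliana libraries. No A. thaliana library came near the A. halleri libraries, and the difference was 39.9-fold (log2 5.32, SE 0.22, edgeR adjusted p = 1.68e-06). PSBR (AT1G79040, chr1:29735952-29737009), which is needed for stable binding of the oxygen-evolving subunits, had the highest level per kilobase of the group in both species, with 111 and 147 CPM in A. halleri. In A. thaliana PSBR gave 4.43 and 4.47 CPM, 29.0-fold less (log2 4.86, SE 0.17, edgeR adjusted p = 8.29e-07). Of the other small subunits, PSBX was 10.8-fold and PSBY 18.7-fold higher.

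PSBO, PSBP and PSBQ shield the manganese cluster that splits water. PSBO1 (AT5G66570, chr5:26568572-26570461) came next to PSBR per kilobase in A. thaliana (5.78 against 6.18 CPM per kb), at 7.78 and 6.59 CPM. It gave 62.0 and 77.7 CPM in A. halleri, and its 9.75-fold difference was the smallest among those called in this group (log2 3.29, SE 0.15, edgeR adjusted p = 2.56e-06). PSBO2 (AT3G50820, chr3:18890874-18892508) gave 2.77 and 6.41 CPM in A. halleri and 3.52 and 2.94 CPM in A. thaliana. Both A. thaliana libraries lay between those of A. halleri, and the log2 difference of 0.51 with an SE of 0.38 was not called (edgeR adjusted p = 0.26). The sign turned to -0.21 without A. halleri replicate 2 (edgeR adjusted p = 0.571), and without A. halleri replicate 1 the gene was called higher (log2 1.01, edgeR adjusted p = 0.0138). Of the PSBO reads, PSBO1 held 95.7% and 92.4% in A. halleri but 68.8% and 69.2% in A. thaliana.

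PSBP1 was 12.5-fold higher, with 29.5 and 38.3 CPM against 2.50 and 2.89 CPM. PSBQ1 and PSBQ2 were 21.9-fold and 19.1-fold higher, and their division was similar in all 4 libraries, with PSBQ2 at 70.7% and 71.9% of the pair in A. halleri but 74.4% and 74.0% in A. thaliana. With reads unique to 1 transcript model the share of PSBQ2 was 84.1% to 87.9%. PSBQ1 has 2 models and PSBQ2 has 1, so reads that match both models of PSBQ1 do not count as unique. In A. halleri replicate 1, 87 of 212 reads of the first PSBQ1 model were unique, and 514 of 514 reads of PSBQ2. Differences in division between families were not tested. Reads of the PSBQ pair summed to 42.9 and 46.3 CPM against 2.21 and 2.26 CPM, a 19.9-fold difference (edgeR adjusted p = 4.76e-07).

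**Figure D3:**
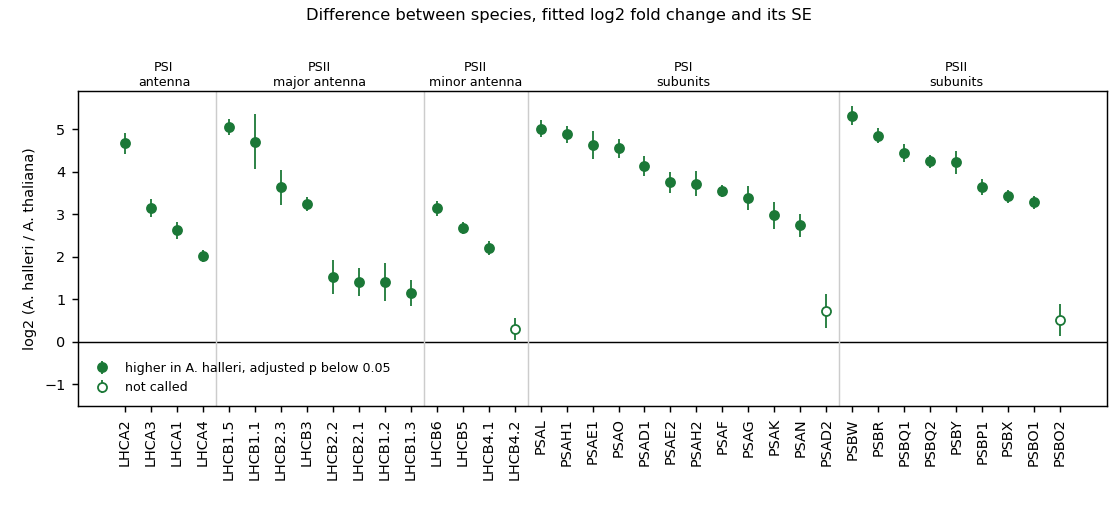
Fitted log2 difference, A. halleri over A. thaliana, for each of the 37 tested genes, with bars of 1 standard error either side and genes grouped by role. Open points mark LHCB4.2, PSAD2 and PSBO2, the 3 genes not called, which lie nearest to 0, and PSBW lies highest at 5.32.

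The A. halleri libraries were not alike for these genes. In 36 of 37 tested genes, replicate 2 was higher than replicate 1, with a median log2 of 0.37, while the same median between the A. thaliana libraries was 0.01. No such count or median over all tested loci is given here, and whether the shift is particular to these genes was not tested. The log2 ratio of the summed level was 3.14 between the replicates numbered 1 and 3.61 between those numbered 2. The 133 loci with chloroplast identifiers moved in the same way, with 314 and 666 CPM in the A. halleri libraries and 191 and 221 CPM in the A. thaliana libraries, and their part in the difference between replicates was not tested. Of 20 chloroplast-encoded loci chosen for this comparison, 15 had too few reads to test, 3 were higher in A. halleri, 0 were lower and 2 were not called. Over all tested loci 35.7% were higher and 36.8% lower. The 3 higher loci did not reach the read minimum in both A. thaliana libraries, so their place among those tested rests on A. halleri. The chloroplast identifiers are not paired with gene names in the sources used here.

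Sequence before the transcription start is shown for the leading antenna copies, since LHCB1.5 and LHCB4.1 were higher in A. halleri by different amounts and LHCB1.3 by the least of the trimer genes. Each run is the 250 bases before the annotated start of the A. thaliana gene, 5′ to 3′ on the gene's strand, from RefSeq's TAIR10.1 assembly, and capitals mark matches to CACGTG (the G-box) or CCAATC on either strand.
LHCB1.3 (chr1:10477635-10477884, plus strand): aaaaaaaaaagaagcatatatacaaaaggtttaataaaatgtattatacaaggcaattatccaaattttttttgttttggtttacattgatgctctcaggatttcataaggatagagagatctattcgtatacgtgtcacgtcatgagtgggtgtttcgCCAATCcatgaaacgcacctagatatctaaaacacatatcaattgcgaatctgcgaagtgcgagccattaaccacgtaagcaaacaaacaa
LHCB1.5 (chr2:14523569-14523818, minus strand): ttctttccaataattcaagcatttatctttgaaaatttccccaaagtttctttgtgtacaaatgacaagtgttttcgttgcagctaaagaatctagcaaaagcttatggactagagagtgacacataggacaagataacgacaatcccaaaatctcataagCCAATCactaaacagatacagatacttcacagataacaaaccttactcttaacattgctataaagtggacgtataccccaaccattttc
LHCB4.1 (chr5:208616-208865, plus strand): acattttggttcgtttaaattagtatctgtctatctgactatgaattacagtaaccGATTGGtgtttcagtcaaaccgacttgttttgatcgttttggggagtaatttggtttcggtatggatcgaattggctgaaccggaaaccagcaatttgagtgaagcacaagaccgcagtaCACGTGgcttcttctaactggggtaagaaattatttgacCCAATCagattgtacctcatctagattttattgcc
LHCB1.3 and LHCB1.5 each hold CCAATC at nearly the same distance, 91 and 89 bases before the start, and LHCB4.1 holds CACGTG 74 bases before the start and CCAATC at 194 and 35 bases. The window of 250 bases held CACGTG in 8 of the 39 genes (20.5%) and in 6.49% of 27443 gene windows of the same length. CCAATC was present in 11 of 39 genes (28.2%) and in 10.2% of all windows. GATAAG, searched in the same way, was present in 9 of 39 genes (23.1%) and in 12.3% of all windows. Of the 34 genes called higher, 8 held CACGTG, 10 held CCAATC and 8 held GATAAG. The matches describe the A. thaliana genome, and the A. halleri sequence was not used here.

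Genes that work with the antenna and photosystems were examined from lists of known function. Their counts stand beside 72.5% of all tested loci called, 35.7% higher and 36.8% lower in A. halleri. OHP1, PSBS, LIL3:1, PETE2, FNR2, ATPC1, CHLI2, GAPB, PRK, SBPASE, GLK1 and GUN4 did not reach the read minimum in both A. thaliana libraries. ELIP1 did not reach it in both A. halleri libraries. The place of these genes among those tested rests on the species in which they were high. Of 12 rarer antenna relatives, 10 were tested, of which 6 were higher, 1 was lower and 3 were not called. PSBS, which senses acidity of the lumen and sets the dissipation of excess light energy, differed 29.1-fold, from 80 and 117 reads in A. halleri to 4 and 4 (edgeR adjusted p = 3.77e-05). SEP1 was 3.56-fold higher and LIL3:2, which anchors enzymes of chlorophyll synthesis, 3.37-fold higher. The lower gene, named after its value was seen, was ELIP1, a light-stress relative of the antenna, which fell from 8.24 CPM in A. thaliana to 0.249 CPM in A. halleri, a 32.7-fold difference (edgeR adjusted p = 1.79e-05). Without A. halleri replicate 2 its log2 moved from -5.03 to -6.04 and without A. halleri replicate 1 to -4.40.

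**Figure D4:**
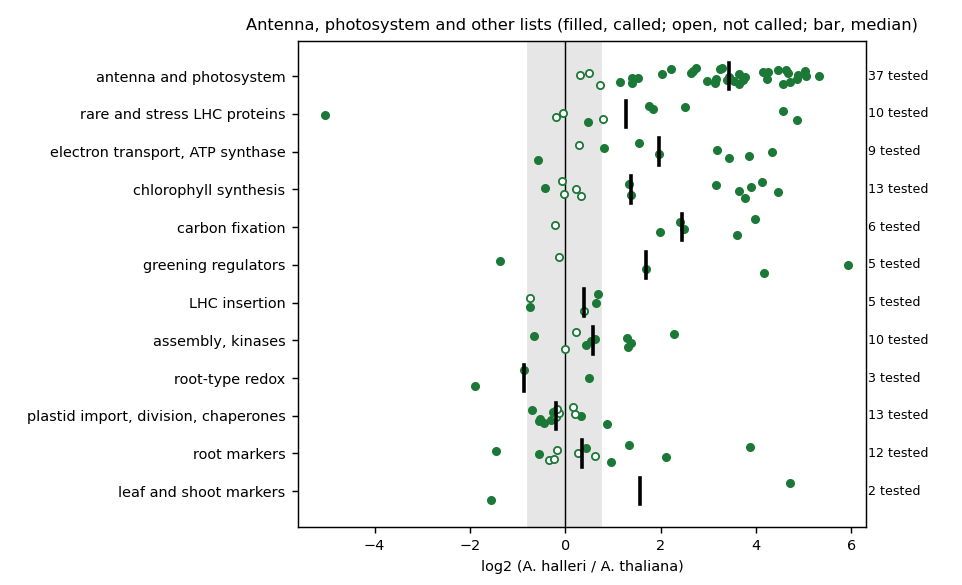
Fitted log2 difference, A. halleri over A. thaliana, of each tested gene among the antenna and photosystem genes and in the other lists, with 1 point per gene (filled where called), a bar at each median and a grey band over the middle quartiles of all tested loci. The antenna and photosystem genes have a median of 3.43, and the list of plastid import, division and chaperones has a median of -0.19.

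In the list for electron transport and ATP synthase, 7 of 9 tested genes were higher, 1 was lower and 1 was not called, with a median log2 of 1.97. PETC, the Rieske protein of the cytochrome complex between the photosystems, was 20.1-fold higher at 17.4 CPM against 0.878 CPM, and FD2, the main leaf ferredoxin, was 3.91-fold higher. The lower gene was FD1, named after its value was seen, whose call (log2 -0.57) was lost when either species lacked its replicate 1, with upper-quartile scaling, against a 2-fold change and in DESeq2. Of the 3 root-type genes, a ferredoxin and its reductases, 1 was higher and 2 were lower. FD3 was 1.41-fold higher at 645 CPM against 457 CPM, RFNR1 was 1.82-fold lower and RFNR2 was 3.69-fold lower in A. halleri, with 5295 and 4581 reads against 20947 and 22969.

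Genes called in the list for insertion of antenna proteins differed by less than 2-fold. ALB3, which inserts antenna proteins into the thylakoid membrane, was 1.66-fold lower in A. halleri, but was not called with reads unique to 1 transcript model (log2 -0.53, edgeR adjusted p = 0.628). CPSRP54 and CPFTSY, which carry antenna proteins to ALB3, were 1.62-fold and 1.56-fold higher. Over the 5 genes of that list 2 were higher, 1 was lower and 2 were not called, and the lower count was 2 without A. halleri replicate 2 or A. thaliana replicate 1. In the assembly and kinase list 7 of 10 were higher, 1 was lower and 2 were not called. Over all tested loci 72.5% were called, 35.7% of them higher and 36.8% lower as shares of all loci tested. HCF136, an assembly factor of photosystem II, was 4.82-fold higher. The kinase STN7, which phosphorylates the mobile antenna, was 2.58-fold higher, and STN8, which phosphorylates the photosystem II core, was 1.57-fold lower.

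Chlorophyll synthesis genes were higher in 8 of 13 tested, lower in 1 and not called in 4. CHLG, the last enzyme of the pathway, was 21.9-fold higher at 18.3 CPM against 0.832 CPM, and the protochlorophyllide reductases PORB and PORC were 14.8-fold and 13.6-fold higher. Without A. thaliana replicate 1, the log2 of PORB moved from 3.88 to 4.55. The lower gene was CHLM, named after its value was seen, which lost its call in each fit that left out 1 library, with upper-quartile scaling, against a 2-fold change, in DESeq2 and in limma on RPKM. In carbon fixation 5 of 6 tested genes were higher, 0 were lower and 1 was not called, with RBCS1A, a small subunit of Rubisco, 5.59-fold higher and GAPA1 5.30-fold higher. The others called, GAPB, PRK and SBPASE, did not reach the read minimum in both A. thaliana libraries. CA1, a carbonic anhydrase abundant in leaves, was not tested, with 8 to 11 reads in each library.

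Regulators of greening were mixed, as 3 of 5 tested were higher, 1 was lower and 1 missed the threshold, where 72.5% of all tested loci were called. Of the 3 higher, GLK1 and GUN4 did not reach the read minimum in both A. thaliana libraries. GLK1, a transcription factor that activates antenna and chlorophyll synthesis genes, differed 17.9-fold, from 51 and 56 reads in A. halleri to 3 and 4 (edgeR adjusted p = 4.32e-05), and had too few reads unique to 1 transcript model to be tested on those. Its relative GLK2 was close in the species, at 3.55 and 3.87 CPM, with a log2 of -0.12 that missed the threshold (SE 0.28, edgeR adjusted p = 0.702) and turned to 0.20 or 0.02 when A. halleri or A. thaliana lacked its replicate 1. HY5, a light-signalling factor, was 2.59-fold lower in A. halleri, whereas its homologue HYH was 3.21-fold higher.

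Plastid housekeeping genes, those of protein import, division and chaperones, differed by less. They summed to 781 and 806 CPM in A. halleri and 888 and 892 CPM in A. thaliana. Of 13 tested 2 were higher, 6 were lower and 5 were not called, beside 35.7% higher and 36.8% lower over all tested loci. TIC40 and TOC132, parts of the import machinery, were 1.62-fold and 1.47-fold lower in A. halleri. TOC33, an import receptor, was 1.84-fold higher, but its log2 turned from 0.88 to -0.53 with reads unique to 1 transcript model (edgeR adjusted p = 0.203). The lower count fell to 4 when either species lacked its replicate 2. Among the 12 root markers, 5 were higher, 2 lower and 5 not called, with TIP2;3, a vacuolar aquaporin, 14.7-fold higher, PYK10, a root beta-glucosidase, 4.31-fold higher and PHO1, a phosphate exporter, 2.74-fold lower in A. halleri. Their part in the result on the antenna genes was not tested.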

How the data were processed

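Total RNA was extracted from roots with TRIzol and sequenced from an Illumina kit, per the labels' protocols. The authors deposited, per the file headers, total and unique read counts per transcript model and RPKM values. The genome build was TAIR10, per the submitters' processing notes, and the aligner, counter, filters and strand setting stand nowhere in the sources used here. Coordinates and sequences come from RefSeq's TAIR10.1.

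Total counts were summed over the 41671 models to 33602 loci. Unique reads made up 69.5% to 69.8% of each library. Loci passing edgeR's default filterByExpr were scaled by TMM and fitted with species as the only term (edgeR 4.0.16, limma 3.58.1 and R 4.3.3, with 2 residual degrees of freedom), and p-values were adjusted over all 20899 loci by Benjamini-Hochberg at 0.05. Fold changes are edgeR's, with its prior count. CPM used TMM library sizes. The method was tested on simulated data.

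Alternatives were other scalings, filters, unique reads, a test against 2-fold, DESeq2 1.42.0, limma on log2(RPKM + 1) and log2(RPKM + 0.1), a replicate block, summed copies and each library left out. Full values were given to the highest, the largest and smallest differences per role group and genes not called, and from other lists to up to 3 called genes with the largest differences and at least 10 CPM, plus 8 fixed genes. Genes and lists were chosen with earlier results of these data known.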

Additional observations from a re-analysis of the deposited data

How the results depend on the processing

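Of the 39 genes, between 32 and 35 were called higher when each library was left out in turn, 33 with DESeq2, 33 after a filter on a mean of 1 CPM, 30 against a 2-fold change and 34 with the other scalings, unique reads or RPKM. None was called lower in any of these, and none of the 37 genes that passed the default filter had a log2 below 0 in edgeR with all 4 libraries. With copies of a family summed, 26 of 26 features were called higher. Against a 2-fold change, LHCB1.2, LHCB1.3, LHCB2.1 and LHCB2.2 were no longer called. Of all 20899 tested loci, the number called fell from 15161 to 6391. Of the 88 tested genes in the other lists, the number called fell from 64 to 35. The median log2 of 3.43 was 2.81 with limma on log2(RPKM + 1), a scale that understates the change of low genes, and 3.31 to 3.56 with a library left out. The summed level had a log2 ratio of 3.39, and 3.19 to 3.58 with a library left out. Signs were followed for the antenna and photosystem genes and for a part of the list genes named above. Among those followed, reversed signs were those of PSBO2 (-0.21 to 1.01 with a library left out), GLK2 (-0.50 to 0.20, likewise) and TOC33 with unique reads (-0.53). The cause was not tested.

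With the replicate number as a block, 34 of the 39 genes were called, 14819 of 20899 tested loci, and 64 of 88 tested genes in the other lists. Deviations of same-numbered libraries had a correlation of -0.05 across loci, so the numbers were not treated as pairs. Standard errors of log2 were largest for LHCB1.1, at 0.65, and the median over the 37 genes was 0.23.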
